A study of Mus musculus with 6 samples.

Results

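The 10 genes described here encode the receptors of TGF-beta, the SMAD proteins that carry its signal and the proteins that hold that signal in check. They were taken by symbol from a table of 32285 gene rows, and all 10 were found and passed the filter on low counts. TGF-beta signals through a pair of kinase receptors, Tgfbr2 and Tgfbr1. The activated Tgfbr1 phosphorylates Smad2 and Smad3, which bind the shared partner Smad4 and enter the nucleus to regulate genes. Smad7 and Smurf2 act back on the receptor, and Ski, Skil and Tgif1 are nuclear corepressors of SMAD-driven transcription. In T cells this pathway is known for inducing Foxp3 outside the thymus and for restraining activation.

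The libraries are bulk RNA-Seq of CD4+CD25+ Tregs sorted from the spleens of C57BL/6 mice, with 3 libraries in each of 2 groups. KO mice were ERCre Zfp335fl/fl animals, in which a Cre recombinase fused to a mutant estrogen receptor becomes active once tamoxifen is given, and WT mice are called ERCre animals in the study's methods and wild-type littermates in the sample labels. By the methods, all mice received tamoxifen in 3 injections from 6 weeks of age and were sacrificed on day 7; the labels do not mention tamoxifen. The promoter that drives the fusion and the number of mice behind each library are not given in the sources used here, so p-values measure the spread between these libraries, which may be technical. The sort rested on CD4 and CD25.

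The library totals ran from 133283969 to 209041812 counts. Zfp335, the deleted gene, was at 115.2 to 124.4 CPM (counts scaled to library size with TMM factors from edgeR) in WT and at 14.3 to 15.1 CPM in KO. Foxp3, the factor that defines Tregs, was at 1046 CPM or more in all 6 libraries. The summed level of 6 B cell markers was 46.8 to 51.4 CPM in WT and 21.5 to 23.6 CPM in KO, and all 6 were lower in KO. The summed level of 8 myeloid markers was 53.0 to 60.4 CPM in WT and 28.9 to 30.9 CPM in KO, with 5 of the 8 lower and 0 higher in edgeR's test (1 higher at an unadjusted p under 0.05, and 0 with DESeq2 and limma-voom). These markers changed unequally. Log2 fold changes were -4.70 for Ngp, -4.32 for S100a9, -3.87 for S100a8, -1.43 for Lyz2 and -0.78 for Itgam. Cd68 (-0.23), Adgre1 (0.028) and Csf1r (0.22) were not called. The 6 red cell markers summed to 36.6 to 43.5 CPM in WT and to 1.81 to 2.31 CPM in KO, all 6 lower. The 5 CD8 T and NK cell markers summed to 18.9 to 19.96 CPM in WT and 18.6 to 20.1 CPM in KO, and 0 were called in edgeR's test (0 also at an unadjusted p under 0.05, with DESeq2 and with limma-voom). Xist, the RNA of the inactive X chromosome, which female cells express and male cells do not, was at most 0.424 CPM in WT and at least 123.9 CPM in KO. By this RNA the WT libraries look male and the KO libraries female, and the labels give no sex. Sex and Zfp335 genotype therefore cannot be told apart in any difference between WT and KO given here. If the WT mice carried no ERCre, as the label of wild-type littermates can be read, the same holds for the presence of Cre. The part of the marker differences in the results that follow was not tested.

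The sequences before the start sites of 4 of these genes are shown because they span the range of change, with Tgif1 changed most, both receptors changed moderately and Smad3 near 0. Each is the 250 bases before a RefSeq start in GRCm38.p6, read 5′ to 3′ along the gene's strand, and no annotated exon lies in them. Capitals mark CAGAC or its reverse complement GTCTG, the short box that SMAD proteins bind.
Tgif1, chr17:70851735-70851984, minus strand: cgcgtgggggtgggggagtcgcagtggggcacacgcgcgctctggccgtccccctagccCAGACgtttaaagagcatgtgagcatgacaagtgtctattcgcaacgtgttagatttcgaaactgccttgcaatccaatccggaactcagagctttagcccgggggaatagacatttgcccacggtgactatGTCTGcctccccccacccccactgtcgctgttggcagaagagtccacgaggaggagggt
Tgfbr2, chr9:116175364-116175613, minus strand: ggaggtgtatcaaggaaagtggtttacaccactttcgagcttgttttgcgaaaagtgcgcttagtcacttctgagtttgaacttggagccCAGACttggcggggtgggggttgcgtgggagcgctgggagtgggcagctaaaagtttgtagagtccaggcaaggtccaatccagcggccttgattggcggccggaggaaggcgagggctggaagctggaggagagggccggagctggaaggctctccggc
Tgfbr1, chr4:47352972-47353221, plus strand: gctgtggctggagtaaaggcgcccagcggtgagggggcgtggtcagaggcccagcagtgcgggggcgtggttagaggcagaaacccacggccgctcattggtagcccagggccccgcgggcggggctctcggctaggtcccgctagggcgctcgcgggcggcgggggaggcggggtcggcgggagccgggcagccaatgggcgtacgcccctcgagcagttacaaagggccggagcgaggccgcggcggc
Smad3, chr9:63757995-63758244, minus strand: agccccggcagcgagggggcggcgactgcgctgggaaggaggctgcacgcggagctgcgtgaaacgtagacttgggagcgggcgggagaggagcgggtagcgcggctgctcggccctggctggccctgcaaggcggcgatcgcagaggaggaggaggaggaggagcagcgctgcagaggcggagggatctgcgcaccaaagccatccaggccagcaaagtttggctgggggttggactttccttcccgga
The table held 5 windows for Tgif1 and 2 for Tgfbr1, and for each gene 1 is shown. The Tgif1 window shown is the only one of its 5 without an annotated exon. It lies inside the gene, before the start of a shorter transcript and between exons of longer ones, and holds 2 of these boxes, while of the other 4 Tgif1 windows 2 hold 1 box each and 2 hold 0. The Tgfbr2 window holds 1, and the windows shown for Tgfbr1 and Smad3 hold 0. The second Tgfbr1 window, chr4:47385966-47386215 inside the gene, holds 1. Across all 32851 windows of 250 bases, 42.2% held at least 1 box and 11.7% held 2 or more, so a match is a description of the letters and not of binding. Windows were read for 6 of the 10 genes, 11 in all, and 6 of the 11 held the box. Skil had no entry.

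To ask whether the pathway differed between the groups, WT and KO were compared with the quasi-likelihood test of edgeR, and p-values were adjusted by the method of Benjamini and Hochberg over the 17307 genes that passed the filter. At an adjusted p under 0.05, 24.1% of all genes tested were called, and 6 of the 10 genes were higher in KO Tregs and 0 were lower (0 also at an unadjusted p under 0.05, and 0 with DESeq2 and limma-voom). The 6 were Tgif1, Skil, Smad7, Smurf2, Tgfbr2 and Tgfbr1, while Smad2, Smad3, Smad4 and Ski were not called. Over all genes tested, 12.0% were higher and 12.1% were lower in KO by the same rule. Called genes were more frequent among abundant ones, and of the 3776 genes at least as abundant as the least abundant of the 10, 23.1% were higher and 12.7% were lower. With the library totals alone as the scale, 6 of the 10 genes were again higher, while over all genes 1622 were higher and 2575 were lower, against 2082 and 2088 with TMM. The median log2 fold change of the 10 genes was 0.17, against -0.0042 over all genes tested. In a bulk sample, a change in the share of cells that express a gene and a change in RNA per cell cannot be told apart.

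**Figure D1:**
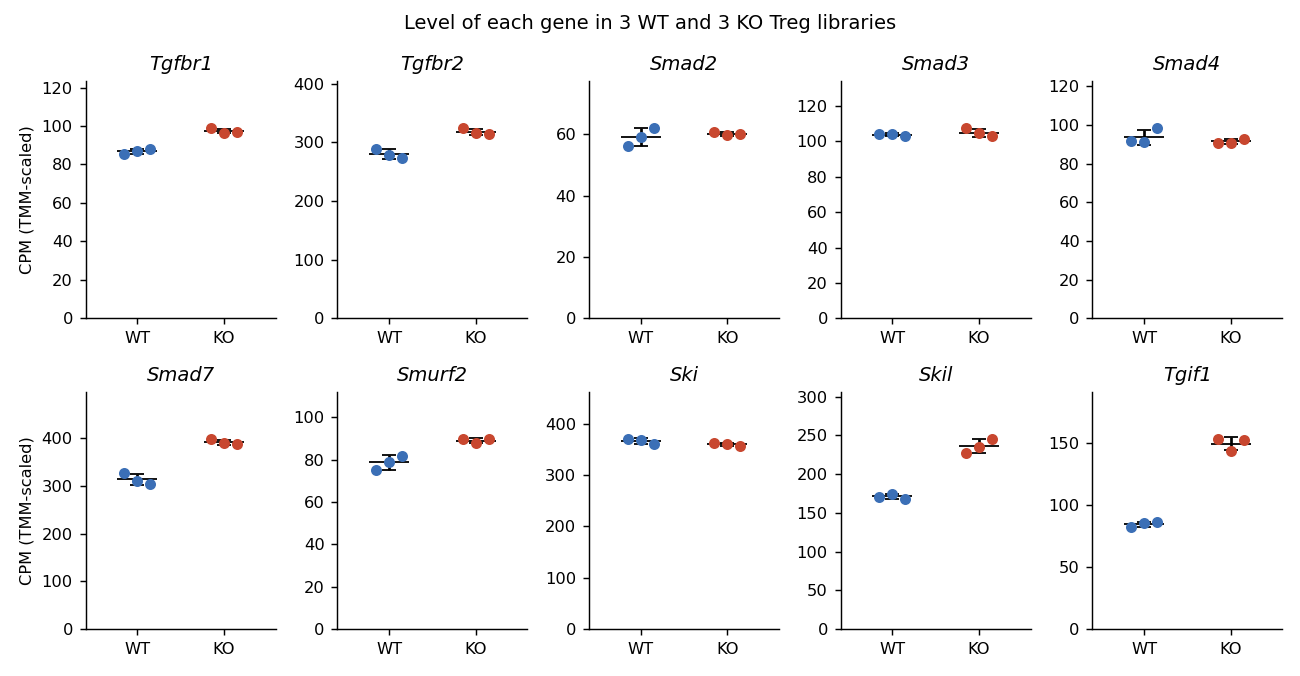
Level of each of the 10 genes in CPM (TMM-scaled, y axes from 0) in the 3 WT (blue) and 3 KO (red) libraries; bars are the mean and SD of 3 libraries. All 3 KO points lie above all 3 WT points for Tgfbr1, Tgfbr2, Smad7, Smurf2, Skil and Tgif1, and the groups overlap for Smad2, Smad3, Smad4 and Ski.

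Both receptors were modestly higher in KO. Tgfbr2, the ligand-binding receptor (chr9:116084293-116175360, minus strand, GRCm38), was at 289.0, 278.8 and 273.1 CPM in WT replicates 1, 2 and 3 and at 323.4, 315.4 and 313.4 CPM in KO replicates 1, 2 and 3. Every KO library lay above every WT library, and the gap between the groups was wider than the spread within either. Its log2 fold change was 0.18 with a standard error of 0.033 (adjusted p = 0.00157 in edgeR), an increase of 13.2%. Tgfbr1, the kinase that phosphorylates the SMADs (chr4:47353222-47414931, plus strand), was at 85.3, 86.9 and 88.1 CPM in WT and at 98.7, 96.4 and 97.0 CPM in KO. Its log2 fold change was 0.17 with a standard error of 0.034 (adjusted p = 0.00307 in edgeR), an increase of 12.2%, and the groups again did not overlap. The ratio of Tgfbr2 to Tgfbr1 counts, which needs no scaling between libraries, was 3.23 ± 0.145 in WT and 3.26 ± 0.0254 in KO (SD, n = 3 each; exact permutation test, two-sided p = 0.7). No change in the ratio of the receptors was detected. For younger mice of another line (Foxp3Cre Zfp335fl/fl), the study names Tgfbr1 among Treg signature genes that were lower in KO. That is the opposite direction to the one seen here. The study attributes the loss of Treg signatures in those mice to inflammation, and the lines were not compared here.

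The SMADs that carry the signal were not called. Smad3 (chr9:63646767-63757994, minus strand) was at 104.4, 104.3 and 103.0 CPM in WT and at 107.3, 104.5 and 103.1 CPM in KO. The groups overlapped, and the log2 fold change of 0.014 had a 95% interval from -0.058 to 0.087 (edgeR adjusted p = 0.812) and turned to -0.017 with library totals alone. Smad2, its close relative, was at 56.1, 59.3 and 61.9 CPM in WT and at 60.7, 59.7 and 60.0 CPM in KO. The 3 KO values fell within the WT range, with a log2 fold change of 0.027 (95% interval -0.064 to 0.12, edgeR adjusted p = 0.711) that turned to -0.0043 with library totals alone. Smad4, the partner of both, was at 91.9, 91.1 and 98.2 CPM in WT and at 90.7, 90.8 and 92.9 CPM in KO. WT replicate 3 was the highest of the 6, and the log2 fold change was -0.034 (95% interval -0.12 to 0.049, edgeR adjusted p = 0.586). A log2 difference above 0.12 in either direction lies outside all 3 intervals.

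The inhibitors at the receptor were higher. Smad7, the inhibitory SMAD that TGF-beta itself induces and that recruits ubiquitin ligases to Tgfbr1, was at 326.6, 310.7 and 303.9 CPM in WT and at 398.2, 389.8 and 387.7 CPM in KO. The lowest KO library stood well above the highest WT library. The log2 fold change was 0.32 with a standard error of 0.035 (adjusted p = 1.84e-05 in edgeR), an increase of 24.9%. Smurf2, a ubiquitin ligase that pairs with Smad7 (chr11:106820066-106920715, minus strand), was at 75.0, 79.1 and 82.0 CPM in WT and at 89.7, 87.8 and 89.7 CPM in KO. Its log2 fold change was 0.18 with a standard error of 0.039 (adjusted p = 0.00471 in edgeR), and the groups did not overlap. The annotation places Gm27322 on the same strand within Smurf2, with 58 exonic bases in common. Relative to Smad3, Smad7 counts went from a ratio of 3.02 ± 0.0967 in WT to 3.73 ± 0.0264 in KO (SD, n = 3 each). Its two-sided p by exact permutation was 0.1, the least that 3 against 3 libraries can give. The ratio of Smurf2 to Smad7 was 0.251 ± 0.0201 in WT and 0.227 ± 0.00347 in KO (SD, n = 3 each), and the groups overlapped (exact permutation test, two-sided p = 0.2).

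The nuclear corepressors parted from each other. Tgif1, a homeodomain protein that binds Smad2 and Smad3 and recruits repressor complexes (chr17:70844205-70853546, minus strand), was at 82.3, 85.0 and 86.1 CPM in WT and at 152.9, 143.4 and 151.9 CPM in KO. It had the largest change of the 10 genes, a log2 fold change of 0.82 with a standard error of 0.038 (adjusted p = 5.49e-09 in edgeR), or 1.77-fold. It was also the only one of the 10 past the study's own cutoffs (a change of 1.5-fold or more, p under 0.05 and adjusted p under 0.1). Of all genes, 2.58% passed these cutoffs upward and 4.37% downward. The study set them for DESeq2 and for Tregs of another mouse line (Foxp3Cre), and here they were applied to edgeR's values. Skil, also called SnoN, which binds Smad2, Smad3 and Smad4 and is degraded on TGF-beta signals (chr3:31095058-31122577, plus strand), was at 171.0, 175.0 and 167.6 CPM in WT and at 227.3, 235.1 and 245.2 CPM in KO. Its log2 fold change was 0.46 with a standard error of 0.036 (adjusted p = 1e-06 in edgeR), an increase of 37.7%. Ski, the relative of Skil with the same SMAD partners (chr4:155154075-155222592, minus strand), was at 370.1, 368.9 and 360.8 CPM in WT and at 363.4, 359.7 and 357.2 CPM in KO. The Ski groups overlapped, and the log2 fold change of -0.026 had a 95% interval from -0.091 to 0.039 (edgeR adjusted p = 0.597).

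Within each library Tgif1 and Skil took a larger share relative to their partners in KO. The ratio of Skil to Ski counts was 0.462, 0.474 and 0.464 in the WT libraries and 0.625, 0.653 and 0.686 in the KO libraries. The ratio of Tgif1 to Smad3 went from 0.813 ± 0.0235 in WT to 1.42 ± 0.0509 in KO, and that of Tgif1 to Smad4 from 0.902 ± 0.0286 to 1.63 ± 0.0538 (SD, n = 3 each). For these 3 ratios the groups did not overlap, and the two-sided p by exact permutation was 0.1 (0.175 when adjusted over the 7 ratios computed). The ratio of Smad2 to Smad3 was 0.569 ± 0.0318 in WT and 0.573 ± 0.00870 in KO (SD, n = 3 each; exact permutation test, two-sided p = 0.9). A ratio shows unequal change of its members and not which of them moved. It is drawn from the same counts as the single-gene tests and adds no separate evidence of a change.

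**Figure D2:**
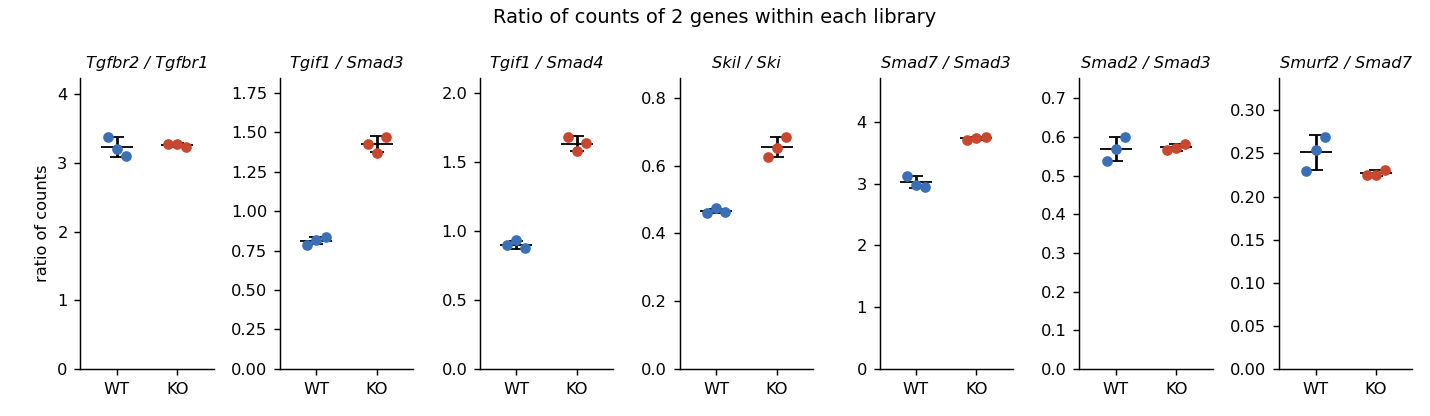
Ratio of the counts of 2 genes within each library (y axes from 0) for 3 WT (blue) and 3 KO (red) libraries, with mean and SD; no scaling between libraries enters. The groups are apart for Tgif1 over Smad3, Tgif1 over Smad4, Skil over Ski and Smad7 over Smad3, and overlap for the other 3 ratios.

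Every KO library was above every WT library for 6 of the 10 genes and below for 0. Over all genes tested, 19.3% had every KO library above and 19.1% every KO library below. The call of each of the 6 higher genes held at an adjusted p under 0.05 in each of the 19 alternative fits that kept this threshold, the fits without each library among them. Over all alternatives the log2 fold change of Tgif1 ran from 0.79 to 0.85, that of Skil from 0.43 to 0.50 and that of Smad7 from 0.29 to 0.35. The ranges were 0.14 to 0.20 for Tgfbr1, 0.15 to 0.20 for Tgfbr2 and 0.15 to 0.21 for Smurf2.

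**Figure D3:**
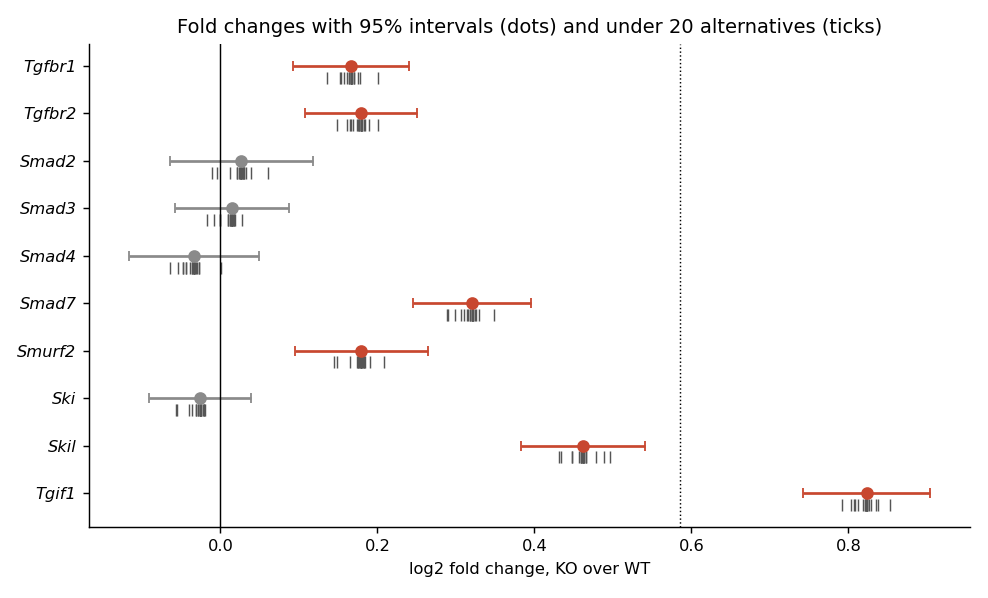
Log2 fold change of KO over WT for the 10 genes (dots) with 95% intervals from edgeR's quasi-likelihood fit, red where the adjusted p is under 0.05, and the same value under 20 alternatives (grey ticks). The dotted line is a 1.5-fold increase, which Tgif1 alone exceeds.

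To set the 10 genes beside each other, counts were divided by the exonic length of each gene and each library was scaled to the same sum (a TPM-type level). Per length, Smad7 at 240.2 ± 11.6 and Ski at 228.1 ± 6.08 were the most abundant in WT, with overlapping ranges (SD, n = 3 each). They were followed by Tgfbr2 at 118.5 ± 4.76, Smad4 at 87.3 ± 2.52, Smad3 at 64.9 ± 1.30 and Skil at 61.1 ± 1.99 on the same scale. Then came Tgif1 at 51.9 ± 0.769, Tgfbr1 at 46.0 ± 0.334, Smurf2 at 44.2 ± 1.47 and Smad2 at 23.3 ± 0.886. In WT, neighbours in this order were apart in all 3 libraries except Smad7 and Ski. The length used joins all annotated exons of a gene, whichever transcripts the cells made. The order between genes depends on that choice, and agreement between libraries does not test it. In KO, Smad7 stood apart from Ski at 296.9 ± 2.46 against 221.8 ± 0.931, and Tgif1 moved from rank 7 to rank 4 at 91.0 ± 2.88. By level per length, the 10 genes lay between percentiles 65.0 and 96.9 of the genes tested.

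The receptors' patterns over the 6 libraries were shared with many genes. The genes most like Tgfbr1, by Pearson's r of log2 CPM over 6 libraries as a description only, were Ubl5, Necap1 and Ak6 at 0.999, 0.998 and 0.998, and 1095 of 9089 genes had a value above 0.9. For Tgfbr2 they were Ilvbl, Ccnd3 and Leng9, each at 0.998, with 1259 genes above 0.9. The libraries form 2 groups, so these values mostly restate the difference between WT and KO.

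Other genes of the pathway were called in both directions. Of 112 further genes in 8 lists, 108 were tested, and 30 were higher and 18 were lower in KO, with a median log2 fold change of 0.021. These are 27.8% and 16.7% of those tested, against 12.0% and 12.1% over all genes, and 23.1% and 12.7% over the genes at least as abundant as the least abundant of the 10. The single lists are small, and their counts are given as a description beside the 24.1% called in either direction over all genes. With the library totals alone as the scale, 23 were higher and 23 were lower. Without KO replicate 2, 22 were higher and 11 lower. Some genes of these lists are named in the next paragraphs because they were called, and were chosen after their values were seen; these are given with their log2 fold change alone.

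Among 16 genes for ligands and their activation, 3 were higher and 3 were lower, with a median log2 fold change of -0.062. Tgfb1, the main ligand made by Tregs, had a mean of 324.8 ± 5.69 CPM in WT and of 326.6 ± 5.43 CPM in KO (SD with n = 3 each), a log2 fold change of 0.0079 (edgeR adjusted p = 0.892) that turned to -0.023 with library totals alone. Lrrc32, which encodes GARP, the protein that holds latent TGF-beta on the Treg surface, rose from 410.3 ± 20.2 to 539.7 ± 9.75 CPM, a log2 fold change of 0.40 (edgeR adjusted p = 6.18e-06). Thbs1, a matrix protein that activates latent TGF-beta, was weakly expressed and fell from 1.27 ± 0.206 to 0.659 ± 0.138 CPM (log2 fold change -0.96, edgeR adjusted p = 0.00588). Furin (0.31), the protease that cleaves the TGF-beta precursor, and Itgav (0.14), an integrin chain that helps activate it, were the others higher, and Itgb1 (-0.33), an integrin chain, and Nrros (-0.25), a GARP relative that holds latent TGF-beta on myeloid cells, were the others lower. Among 13 tested receptors and receptor regulators of the wider family, 3 were higher and 1 was lower (median 0.028). Bambi, a decoy receptor without kinase activity, rose from 6.57 ± 0.550 to 10.05 ± 0.226 CPM (log2 fold change 0.62, edgeR adjusted p = 5.55e-05). The coreceptors Tgfbr3 (0.22) and Eng (0.53, weakly expressed) were also higher, and Bmpr2 (-0.25), a BMP receptor, was lower. Acvr1b, an activin receptor, was at 48.9 ± 2.38 and 52.6 ± 0.427 CPM and was not called (adjusted p = 0.105), although without WT replicate 1 it was (log2 fold change 0.14, edgeR adjusted p = 0.00993). Tgfbrap1, a protein that binds the receptors and Smad4, was at 65.6 CPM in both groups.

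Of 12 tested SMADs and nuclear partners outside the 10 genes, 5 were higher and 0 lower in edgeR's test (1 at an unadjusted p under 0.05, 1 with DESeq2 and 0 with limma-voom), with a median log2 fold change of 0.044. Crebbp, a histone acetyltransferase that SMADs recruit, rose from 203.5 ± 2.47 to 225.7 ± 8.30 CPM (log2 fold change 0.15, edgeR adjusted p = 0.00714). Cited2 (0.31), Ppm1a (0.17, a phosphatase of Smad2 and Smad3), Trim33 (0.14, a ubiquitin ligase that binds SMADs) and Smad1 (0.17, a SMAD of the BMP branch) were the others higher. The gene lower at an unadjusted p was Hgs. The relative of Crebbp, Ep300, was at 329.6 ± 12.8 and 324.7 ± 4.06 CPM (log2 fold change -0.022, edgeR adjusted p = 0.711). Of 14 ubiquitin ligases and deubiquitinases, 3 were higher and 1 was lower (28.6% called, against 24.1% over all genes), with a median log2 fold change of 6e-05. The genes higher were Rnf111 (0.12), a ligase that targets Ski and Skil, Smurf1 (0.19), the relative of Smurf2, and Usp11 (0.19), and Nedd4 (-0.25), a ligase, was lower. Usp4 and Usp9x, the most abundant of them and both deubiquitinases, had log2 fold changes of 0.017 and -0.016 and were not called; the first turned to -0.014 with library totals alone and the second to 0.026 with a GC trend removed. Of 13 corepressors and other inhibitors tested, 5 were higher and 1 was lower (median 0.11). Tgif2, the paralog of Tgif1, rose from 48.0 ± 1.003 to 77.8 ± 2.55 CPM, a log2 fold change of 0.70 with a standard error of 0.040 (adjusted p = 4.54e-08 in edgeR). The KO libraries for Tgif2 were at 80.7, 75.7 and 77.0 CPM, all above the WT libraries at 48.8, 46.9 and 48.2 CPM. The others higher were Hdac1 (0.11) and Sin3a (0.11), parts of a histone deacetylase complex, Strap (0.21) and Zeb1 (0.12). Zeb2 (-0.47), a weakly expressed relative of Zeb1 that binds SMADs, was lower. The calls of Hdac1 and Zeb1 lay close to the threshold, and limma-voom called 4 genes of this list higher. Transcripts of Tgif1 shared 0% of their 50-base stretches with transcripts of other genes, Tgif2 among them. Ncor1 and Ctbp1, general corepressors and the most abundant of this list, had log2 fold changes of 0.020 and 0.022 and were not called, and both were below 0 with library totals alone (-0.010 and -0.0091). In the branch that does not use SMADs, 4 of 12 genes were higher and 2 lower (median 0.068). The genes higher were Traf6 (0.23), Traf4 (0.27), Tab1 (0.18) and Tab3 (0.26), which link receptors to the kinase TAK1. Rhoa, a small GTPase, was at 313 ± 6.23 and 290.7 ± 0.996 CPM, a log2 fold change of -0.11 (edgeR adjusted p = 0.0231) that was not called without WT replicate 2 (adjusted p = 0.124) or without KO replicate 1, 2 or 3 (adjusted p = 0.0852, 0.11 and 0.0739). Dab2, an adaptor of the receptors, was at 0.456 ± 0.110 and 0.177 ± 0.0667 CPM, and its call (edgeR adjusted p = 0.0165) was lost without WT replicate 1, KO replicate 1 or KO replicate 2 (adjusted p = 0.0609, 0.0718 and 0.0672). Tab2, a kinase adaptor, was at 193.3 ± 5.68 and 186.5 ± 3.12 CPM and was not called (adjusted p = 0.315).

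**Figure D4:**
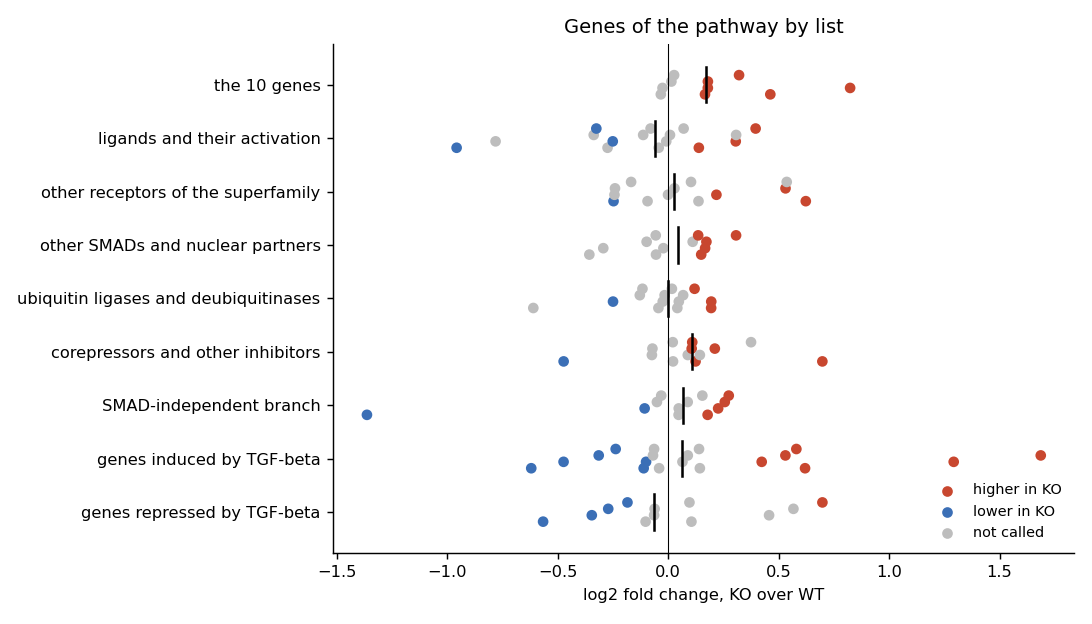
Log2 fold change of KO over WT for every tested gene of the 10 genes and of 8 lists of other pathway genes; red and blue mark genes called higher and lower (adjusted p under 0.05), grey those not called, and black bars the list medians. The bar of the 10 genes is at 0.17 and those of the other lists lie between -0.063 and 0.11.

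Genes known to respond to TGF-beta were also called in both directions. Of 19 tested genes that TGF-beta can induce, 6 were higher and 6 were lower in KO (median 0.064). The highest rises in that list were those of Cdkn1a, an inhibitor of the cell cycle that p53 also induces, from 7.93 ± 0.425 to 25.6 ± 0.508 CPM (log2 fold change 1.69, edgeR adjusted p = 5.24e-10), and of Bhlhe40, a transcription factor induced by many stimuli, from 207.7 ± 4.97 to 508.6 ± 1.65 CPM (log2 fold change 1.29, edgeR adjusted p = 3.03e-11). Gadd45b and Junb, both early response genes, rose with log2 fold changes of 0.62 and 0.53. Tgfbi, named for its induction by TGF-beta, fell from 2.08 ± 0.0870 to 1.34 ± 0.185 CPM (log2 fold change -0.62, edgeR adjusted p = 0.00812). Klf10 (0.58) and Ahr (0.42) were the others higher, and Itgae (-0.31), the CD103 chain, Nt5e (-0.10) and Id3 (-0.24) were among the others lower. The call of Nt5e lay close to the threshold. Foxp3 was at 1136 ± 17.4 and 1052 ± 9.24 CPM, a log2 fold change of -0.11 (edgeR adjusted p = 0.0163) that was not called without KO replicate 1, 2 or 3 (adjusted p = 0.0508, 0.0922 and 0.0703). Of 12 genes that TGF-beta can repress, 1 was higher and 4 were lower (median -0.063). Ifng, the Th1 cytokine, was the one higher, from 8.94 ± 0.918 to 14.6 ± 1.12 CPM (log2 fold change 0.70, edgeR adjusted p = 4.45e-05), whereas Myc, a driver of growth, fell from 158.0 ± 7.59 to 139.0 ± 1.31 CPM (log2 fold change -0.18, edgeR adjusted p = 0.00333). The others lower were the cytotoxic genes Gzmb (-0.57) and Prf1 (-0.27) and Eomes (-0.35), a transcription factor of cytotoxic cells. Many of these genes also respond to other signals, and no measure of TGF-beta signaling itself is in these data.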

How the data were processed

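CD4+CD25+ Tregs from spleen were profiled by RNA-Seq of total RNA (TruSeq), with 3 WT and 3 KO libraries. The deposited table holds whole-number counts per gene symbol, labelled raw, which the authors did not normalize. Its entries equal to 1 numbered 620, fewer than the 1969 equal to 3 and the 2579 equal to 4, and the reason was not tested. The submitters' processing notes name HISAT2, DESeq2 and mm10. The counter, annotation and strand setting behind this table are not given in the sources used here. For Tregs of another mouse line (Foxp3Cre), the study's supplemental methods name SOAPnuke, HISAT2 and StringTie. The study's cutoffs come from the same methods, where they apply to DESeq2 and to those Foxp3Cre Tregs.

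Groups came from the sample labels. Counts were scaled by TMM, filtered with filterByExpr and tested with edgeR 4.0.16 (glmQLFit, robust, and glmQLFTest) in R 4.3.3, with Benjamini-Hochberg adjustment over 17307 genes and a threshold of 0.05. Single ratios were tested by an exact two-sided permutation test. Results were recomputed with other scalings and filters, DESeq2 1.42.0, limma-voom (limma 3.58.1), a GC trend, a replicate block and leaving out each library. Lengths and positions came from GENCODE M21 on GRCm38, and promoter sequences from RefSeq. If the entries are plain counts, totals of 133283969 to 209041812 put counting error below the spread between libraries (median chi-square per gene 3.26 to 6.82 within groups).

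The 10 genes and all lists were chosen with earlier results of these data known. Named genes were Zfp335, Xist, the 10 genes and, from each list, those past the study's cutoffs (at most 4) and the 2 with the highest CPM. For each receptor the 3 most alike genes were added, among those whose log2 CPM averaged 3 or more. Markers were named where a result turned on them. A few genes that this rule would name are not reported here.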

Additional observations from a re-analysis of the deposited data

How the results depend on the processing

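Of the 10 genes, 6 were higher and 0 lower in KO under every alternative except the cutoffs of the supplemental methods. These cutoffs, added after seeing the data, kept 1 of the 10 (Tgif1), 446 genes higher and 757 lower, and 6 and 3 genes of the pathway lists. They dropped Tgfbr1 (0.17), Tgfbr2 (0.18), Smad7 (0.32), Skil (0.46) and Smurf2 (0.18), whose log2 fold changes lie below the fold required. Genes of chromosomes X and Y left out and counts divided by 4, also added after seeing the data, changed none of the 10 calls. None of the 10 genes lies on X or Y, so the first says nothing of an effect of sex on them.

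Only values near 0 changed sign, and the cause was not tested. Upper-quartile factors gave -0.00018 for Smad3 and -0.0065 for Tgfb1. Library totals alone gave -0.017 for Smad3, -0.0043 for Smad2, -0.023 for Tgfb1, -0.014 for Usp4, -0.010 for Ncor1 and -0.0091 for Ctbp1, and moved the median of all genes to -0.035. Removing a GC trend gave -0.0079 for Smad3, -0.012 for Tgfb1, 0.026 for Usp9x and -0.0086 for Ctbp1. Keeping genes with any count gave 0.0023 for Tgfbrap1.

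Leaving out each library in turn gave log2 fold changes from -0.011 to 0.060 for Smad2, -0.00095 to 0.028 for Smad3, -0.053 to 0.00088 for Smad4, -0.0058 to 0.021 for Tgfb1, -0.0038 to 0.0020 for Tgfbrap1 and -0.036 to 0.0044 for Usp9x. Over all genes, 1341 to 2495 were higher (1341 without WT replicate 2, 1386 without KO replicate 2) and 1399 to 2501 lower. In the pathway lists 22 to 35 were higher and 11 to 20 lower (11 without KO replicate 2).

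No strong pairing of the libraries by replicate number was seen: deviations of same-numbered libraries correlated at 0.131, -0.0424 and 0.0157. Such values cannot show that the libraries were unpaired. With the replicate number as a block, 6 of the 10 genes were called (Tgif1 at 0.82) and 2143 and 2084 of all genes.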

Other observations

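Of 8 Treg markers, 2 were higher and 2 lower in KO. Ctla4, an inhibitory receptor, had means of 410.3 ± 9.03 (WT) and 645.3 ± 8.93 CPM (KO; SD with n = 3 each), a log2 fold change of 0.65. Il2ra, which encodes the CD25 used in the sort, was at 479.6 ± 16.0 CPM and 433.4 ± 5.99 CPM (log2 fold change -0.15). Of 6 platelet and megakaryocyte markers, 2 were expressed enough to be tested and 1 was higher in KO. That gene, Itga2b, was at 3.74 ± 0.301 CPM in WT and 4.75 ± 0.263 CPM in KO. Of 6 stromal and endothelial markers, 1 was lower, and Pecam1 carried most of their sum at 170.0 ± 1.55 CPM in WT and 166.4 ± 3.98 CPM in KO. The others were weakly expressed. Col1a1, the highest of them, averaged 2.25 CPM in WT and 2.01 CPM in KO. Cdh5, the one lower, averaged 0.651 CPM in WT and 0.307 CPM in KO.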
